A study of Rattus norvegicus with 20 samples.

Results

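A set of 9 complement genes was followed in INS-1 cells, a rat insulin-secreting beta cell line, on 20 Affymetrix Rat Gene 2.0 arrays with 5 arrays in each of 4 groups. They were C4bpa, C4bpb, C3, C4a, Cd55, Cd59, Cfi, Pros1 and Serping1. The genes were chosen as components and regulators of complement by their names, with earlier results of these data known. Each gene was read through the brightest probe set that carries its symbol alone, and 6 of the 9 had such a probe set, among 18166 genes in all. The symbols Cd59 and Cfi did not occur in the platform annotation used. RefSeq lists Cd59 as a synonym of Cd59b, whose probe set is described beside the members and not counted with them, and Cfi was not analysed here. C4a shared its only probe set with C4b, so its signal could not be assigned to either gene, and it is also described beside the members.

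The groups are named by the word in each array's title. Per the series description, cells received 77 µM monomeric islet amyloid polypeptide (IAPP, the peptide that forms islet amyloid) together with 0.6 µM C4b-binding protein (C4BP), IAPP alone, C4BP alone, or 1% DMSO, the solvent of IAPP. The sample fields give the doses by weight, as 300 ug/ml for IAPP and for C4BP. The titles use the words C4BP, IAPP, C4BPD and DMSO. The labels do not spell out which of C4BP and C4BPD is the combination, and the likely reading is that C4BP holds both agents and C4BPD holds C4BP without IAPP. The separate treatment field matched the title in 3 of 20 arrays under that reading, and in 2 of the 10 titled IAPP or DMSO, so every result below rests on the titles. Fits grouped by that field mix the title groups, so they do not test a difference between those groups. In all groups the cells came from 5 clones kept apart over 10 passages, were plated at 100000 per well of a 12-well plate, were treated about 48 h later at 70% confluency, and gave RNA 10 h into treatment. The labels do not say which clone an array came from, so p-values measure the spread between these arrays, which may be partly technical.

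Complement is a cascade of plasma proteins that is started by the classical, lectin or alternative pathway, converges on the cleavage of C3 and ends in the membrane attack complex. Host cells hold it in check with membrane proteins such as CD55, which speeds the decay of C3 convertases, and CD59, which blocks assembly of the membrane attack complex. In the fluid phase, C4BP, built of alpha chains and a beta chain that carries protein S, binds C4b and helps factor I to cleave it, while C1 inhibitor stops the proteases that start the classical and lectin pathways. Most of the fluid-phase proteins are made by the liver. The arrays report on RNA of the cells and not on the C4BP protein added to the medium.

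Among the members, the membrane regulator Cd55 gave a high signal in the cells, and the genes of C4BP itself and of C3 gave low ones. Values are the deposited intensities on a linear scale, and differences are on the log2 scale. Across all probe sets without controls, the median was a log2 intensity of 7.47. The members above the median probe set were Cd55, Pros1 and Serping1, each above the median of its own array in 20 of 20 arrays. C4bpa, C3 and C4bpb lay below it in all 20. Lying below the median is a position among probe sets and not a test of whether the RNA is present. No member passed the test in any comparison between groups in the fit used here, which has no block for replicate number. In that fit no member difference had a confidence interval that reached beyond 1.28-fold.

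**Figure D1:**
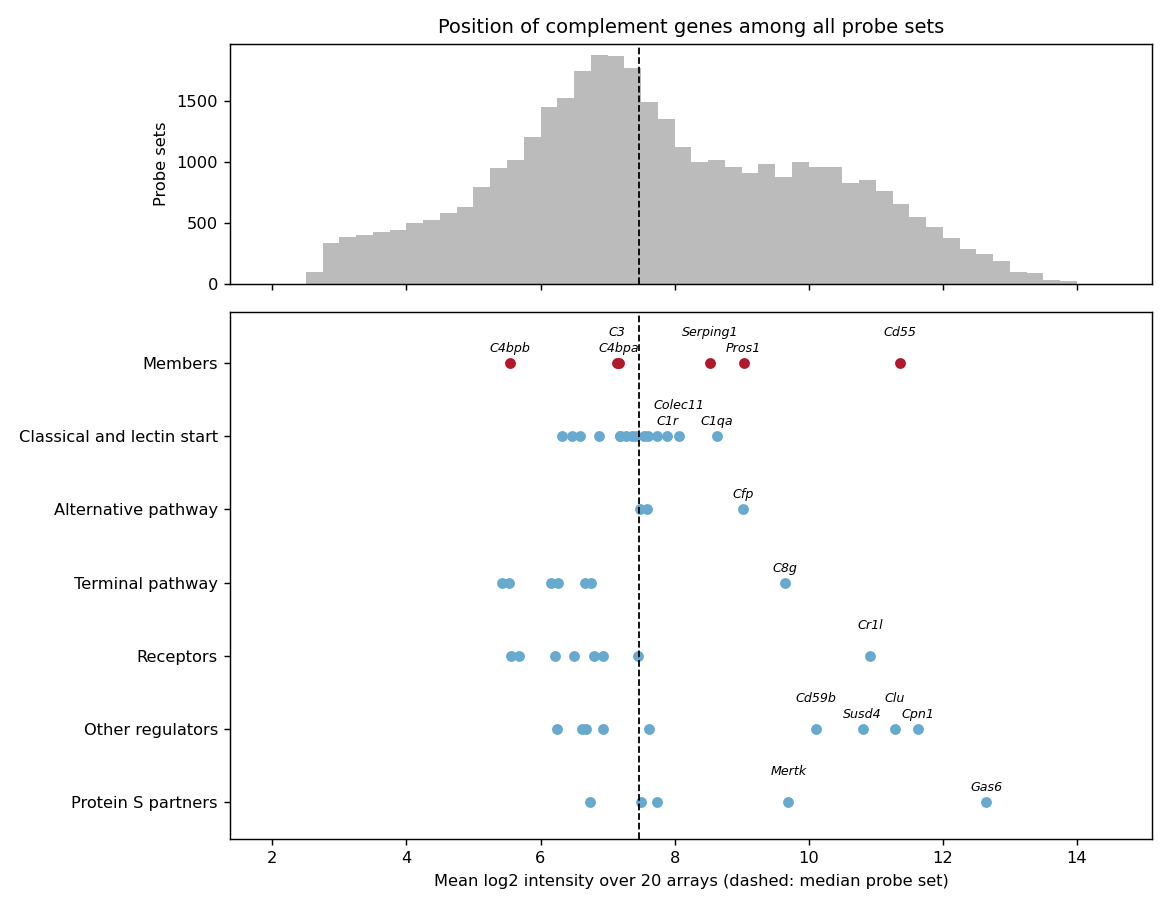
The upper panel counts probe sets by mean log2 intensity over 20 arrays, and the lower panel places each measured gene on the same axis by its list, with the median probe set as a dashed line at 7.47. Among the members, Cd55, Pros1 and Serping1 lie above the line and C4bpa, C3 and C4bpb below it.

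Some of the members sit close together in the genome and lay at different positions among the probe sets. In the RefSeq annotation of the rat assembly GRCr8, Cd55, Zp3r, C4bpa, Lsm6l1 and C4bpb follow one another in that order among the protein-coding genes of chromosome 13. The promoters of Cd55, C4bpa and C4bpb are therefore set out together, because the 3 genes lie on the same strand and on different sides of the median probe set. Each window is from RefSeq, runs from 250 bases before to 50 bases after the start of the gene, and is written 5′ to 3′ on the minus strand. The windows are chr13:44438052-44438351 for Cd55, chr13:44663422-44663721 for C4bpa and chr13:44683732-44684031 for C4bpb. Capitals mark the GC box GGGCGG in either orientation and, in C4bpb, the STAT-type motif TTCNNNGAA.
Cd55: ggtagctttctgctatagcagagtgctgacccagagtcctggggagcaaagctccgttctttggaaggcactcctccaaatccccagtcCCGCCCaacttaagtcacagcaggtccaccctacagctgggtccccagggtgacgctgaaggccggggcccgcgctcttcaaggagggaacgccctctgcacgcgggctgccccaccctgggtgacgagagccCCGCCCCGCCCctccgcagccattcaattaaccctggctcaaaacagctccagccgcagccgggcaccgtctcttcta
C4bpa: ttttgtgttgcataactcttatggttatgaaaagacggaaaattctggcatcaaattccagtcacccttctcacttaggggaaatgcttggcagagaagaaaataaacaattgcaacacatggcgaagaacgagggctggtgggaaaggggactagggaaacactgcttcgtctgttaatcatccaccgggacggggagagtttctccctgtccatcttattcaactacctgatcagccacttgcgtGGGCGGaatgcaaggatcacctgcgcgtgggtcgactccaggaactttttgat
C4bpb: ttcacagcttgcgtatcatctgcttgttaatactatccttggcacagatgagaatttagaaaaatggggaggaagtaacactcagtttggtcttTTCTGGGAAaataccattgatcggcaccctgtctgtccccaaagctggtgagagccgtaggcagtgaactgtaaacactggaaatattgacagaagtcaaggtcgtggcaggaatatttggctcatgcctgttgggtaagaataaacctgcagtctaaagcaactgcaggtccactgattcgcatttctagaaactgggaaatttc
The Cd55 window held 3 GC boxes, of which the 2 nearest the start overlap by 1 base. The C4bpa window held 1 and the C4bpb window held 0. A GC box in either orientation occurred in 33.1% of 33469 rat promoter windows. The STAT-type motif occurred 1 time in C4bpb and in 8.87% of all windows. The GC content was 63.7% for Cd55, 47.7% for C4bpa and 44.0% for C4bpb, beside a median of 51.7% over all windows. CpG dinucleotides numbered 16 in Cd55, 11 in C4bpa and 5 in C4bpb, beside a median of 7. The Pros1 window also held 3 GC boxes and 19 CpG dinucleotides and 1 STAT-type motif, and the C3 window held 0 GC boxes, 3 CpG dinucleotides and 0 STAT-type motifs. A match is a run of letters in the window and is not evidence that a factor binds there.

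Cd55, which encodes decay-accelerating factor, stood highest of the members among all probe sets. Its probe set averaged a log2 intensity of 11.36 over 20 arrays, at the 92.7th percentile of all probe sets. Its intensities in replicate order 1 to 5 were 2612, 2596, 2716, 2883 and 2605 in C4BP and 2634, 2803, 2765, 2791 and 2802 in IAPP. They were 2346, 2575, 2521, 2539 and 2605 in C4BPD and 2519.9, 2638, 2498, 2712 and 2530.5 in DMSO. Of the 5 IAPP arrays, 4 were above every DMSO array, and the IAPP array numbered 1 was inside the DMSO range. The means were 2682 ± 122 in C4BP, 2759 ± 71.5 in IAPP, 2517 ± 101 in C4BPD and 2579.6 ± 91.6 in DMSO (SD, n = 5 each). The log2 difference was 0.10 for IAPP against DMSO, with a 95% confidence interval of 0.01 to 0.18. Its limma p of 0.0241 became 0.277 after Benjamini-Hochberg adjustment over all genes, so it did not pass the threshold of 0.05. C4BP against C4BPD gave 0.09, with an interval of 0.01 to 0.17 and an adjusted limma p of 0.308. In the order IAPP, C4BP, DMSO, C4BPD by mean, no neighbouring pair that was tested passed. Cd55 varied little between arrays of a group, with a residual SD of 0.054 on the log2 scale, at the 8.33rd percentile of all genes.

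Cd59b is described with Cd55 because it encodes a CD59 protein. Its probe set averaged 10.10 on the log2 scale, at the 81.0th percentile, and was above the median in 20 of 20 arrays. The intensities were 983, 1143, 1115, 1222 and 1070.1 in C4BP and 932, 1160.4, 1182, 1152 and 1188 in IAPP. In C4BPD they were 1048, 1070.1, 1099, 1041 and 1106, and in DMSO 1012, 1190.3, 1068, 1122 and 1103. All 4 groups overlapped. The largest difference in size among the 5 comparisons was 0.04, for C4BP against C4BPD, with an interval of -0.09 to 0.18. The F test across the groups gave an adjusted p of 0.940 by limma.

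**Figure D2:**
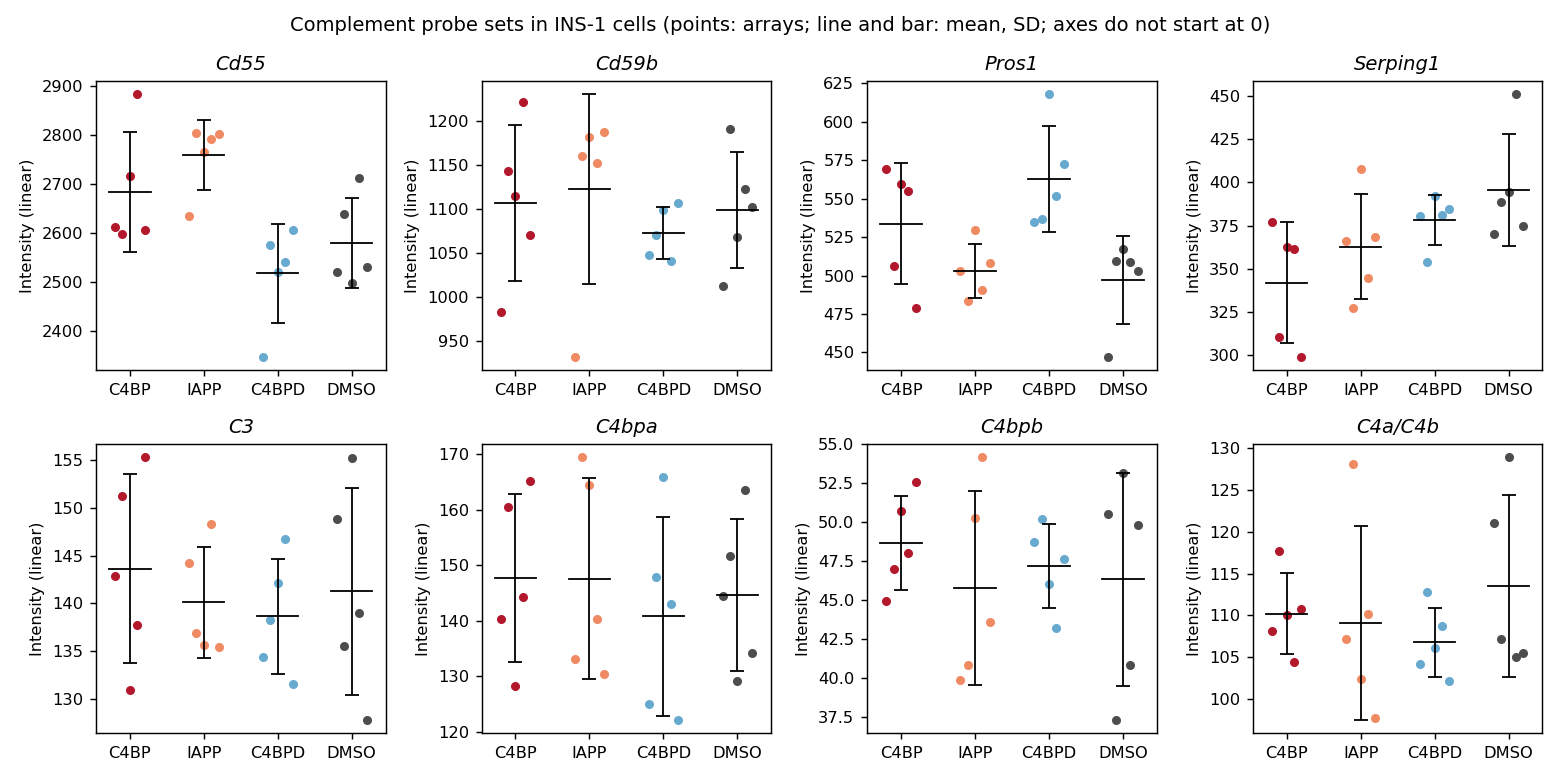
Each panel shows 1 probe set, with its linear intensity on the vertical axis and the groups C4BP, IAPP, C4BPD and DMSO along the horizontal axis; points are arrays, and the line and bar are the mean and SD of 5 arrays. The vertical axes do not start at 0, and among the members only Pros1 shows a pair of compared groups that do not overlap, C4BPD (535 to 618) above DMSO (447 to 517). Over all genes, 2.38% to 6.13% had groups that did not overlap in the comparisons made.

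C4bpa encodes the alpha chain of C4BP and C4bpb its beta chain. C4bpa averaged 7.17 on the log2 scale, at the 44.2nd percentile, and C4bpb averaged 5.55, at the 17.0th percentile. C4bpa gave intensities of 140.2, 161, 128, 144 and 165 in C4BP, 133, 169, 164, 140.4 and 130.5 in IAPP, 125, 148, 166, 143 and 122 in C4BPD, and 144, 152, 129, 164 and 134 in DMSO. The groups overlapped throughout. The C4bpa means were 148 ± 15.2 in C4BP, 148 ± 18.1 in IAPP, 141 ± 17.9 in C4BPD and 145 ± 13.7 in DMSO (SD, n = 5 each). C4bpb gave 45.0, 47.0, 50.7, 48.0 and 52.6 in C4BP, 39.9, 40.9, 50.2, 54.2 and 43.6 in IAPP, 48.7, 50.2, 46.0, 43.2 and 47.6 in C4BPD, and 50.5, 37.3, 53.1, 40.9 and 49.8 in DMSO. Its groups overlapped as well, with means between 45.7 in IAPP and 48.6 in C4BP. The C4bpa difference was 0.03 for C4BP against DMSO, with an interval of -0.17 to 0.23, and -0.04 for C4BPD against DMSO, with an interval of -0.24 to 0.16. The C4bpb difference was 0.08 for C4BP against DMSO, with an interval of -0.11 to 0.28. Over the 5 comparisons of both genes, no interval reached beyond 1.22-fold in either direction. Both genes were noisy, with residual SDs of 0.162 for C4bpa and 0.159 for C4bpb on the log2 scale, at the 87.1st and 86.1st percentiles of all genes.

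Pros1 encodes protein S, the vitamin K-dependent anticoagulant that circulates partly bound to the beta chain of C4BP. It averaged 9.03 on the log2 scale, at the 69.9th percentile. Its intensities were 569, 506, 559.6, 555 and 479 in C4BP and 503, 484, 529, 491 and 508 in IAPP. They were 535, 537, 618, 552 and 572 in C4BPD and 447, 509.8, 517, 509 and 503 in DMSO. Every C4BPD array was above every DMSO array, and the C4BP and IAPP arrays overlapped the DMSO range. The means were 534 ± 39.4 in C4BP, 503 ± 17.7 in IAPP, 563 ± 34.3 in C4BPD and 497 ± 28.4 in DMSO (SD, n = 5 each). For C4BPD against DMSO the log2 difference was 0.18 (1.13-fold), with a standard error of 0.055 and an interval of 0.06 to 0.29. The exact two-sided permutation p was 0.00794, the smallest that the 252 splits of 5 against 5 can give, and the limma p was 0.00383. Over all genes the adjusted limma p was 0.117, so the difference did not pass. In that comparison 3.82% of all genes had groups that did not overlap, against 1 of the 6 members. In each other comparison 0 members had groups that did not overlap, beside 2.38% to 6.13% of all genes. Of the 30 member comparisons, this was the 1 without overlap, so the count shows nothing particular to the members. C4BP against DMSO gave 0.10, with an interval of -0.01 to 0.21, and C4BP against C4BPD gave -0.08, with an interval of -0.19 to 0.04. Leaving out each of the 20 arrays in turn moved the C4BPD difference between 0.14 and 0.20, with adjusted limma p between 0.0811 and 0.289.

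Serping1 encodes C1 inhibitor. It averaged 8.52 on the log2 scale, at the 64.5th percentile. Its intensities were 377, 311, 363, 361 and 299 in C4BP and 366, 327, 408, 345 and 368 in IAPP. They were 381, 354, 392, 381 and 384 in C4BPD and 370.2, 389, 394, 451 and 375 in DMSO. Of the 5 C4BP arrays, 4 were below every DMSO array, and the C4BP array numbered 1 was inside the DMSO range. The means were 342 ± 34.7 in C4BP, 363 ± 30.2 in IAPP, 378 ± 14.4 in C4BPD and 396 ± 32.4 in DMSO (SD, n = 5 each). C4BP against DMSO gave a log2 difference of -0.21 (0.863-fold), with a standard error of 0.070 and an interval of -0.36 to -0.07. The limma p was 0.00634, the exact two-sided permutation p was 0.0238, and the limma p adjusted over all genes was 0.0841. This was the lowest adjusted p of any member, and it was under the threshold in 3 of 10 other settings, among them 0.0397 after quantile normalization and 0.0433 with dim genes left out. Grouping by the treatment field, which mixes arrays of different titles, gave a Serping1 difference of 0.10, of the opposite sign. Its adjusted limma p was 0.996. C4BP against C4BPD gave -0.15, with an interval of -0.30 to -0.01, and IAPP against DMSO gave -0.13, with an interval of -0.27 to 0.02. In order of mean, DMSO, C4BPD, IAPP and C4BP, no neighbouring pair that was tested passed.

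C3 encodes the central component of the cascade. It averaged 7.14 on the log2 scale, at the 43.5th percentile. Its intensities were 143, 151, 131, 138 and 155 in C4BP, 144, 137, 136, 148 and 135 in IAPP, 134, 138, 142, 147 and 132 in C4BPD, and 149, 136, 155, 139 and 128 in DMSO. The groups overlapped throughout, with means of 144 ± 9.91 in C4BP, 140.1 ± 5.84 in IAPP, 139 ± 6.07 in C4BPD and 141 ± 10.9 in DMSO (SD, n = 5 each). C4BP against DMSO gave 0.02, with an interval of -0.09 to 0.14. IAPP against DMSO gave -0.01, with an interval of -0.12 to 0.11. The probe set shared by C4a and C4b, genes of the complement component that C4BP binds after its cleavage, averaged 6.78 on the log2 scale, at the 36.1st percentile. Its intensities ran from 104 to 118 in C4BP, 97.8 to 128 in IAPP, 102 to 113 in C4BPD and 105 to 129 in DMSO. C4BP against DMSO gave -0.04 for this probe set, with an interval of -0.18 to 0.11 and an adjusted limma p of 0.940 over all probe sets.

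**Figure D3:**
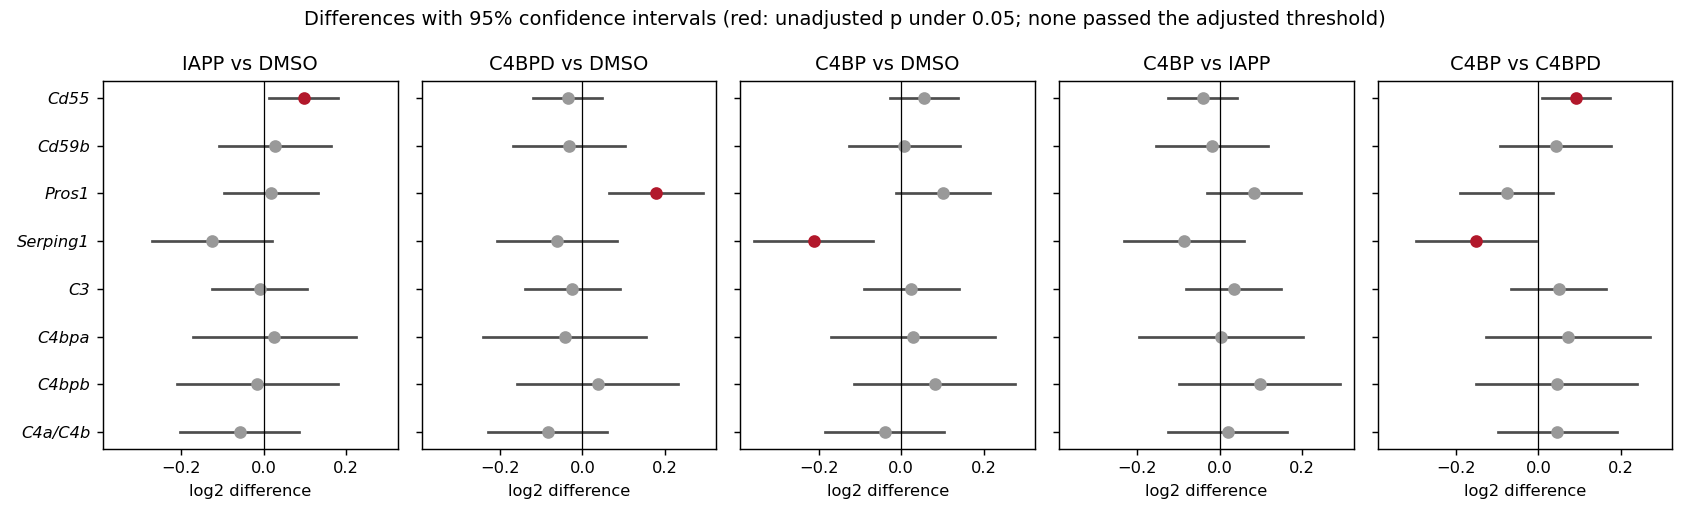
Each panel is 1 comparison, with the log2 difference on the horizontal axis and a point and 95% confidence interval for each probe set; red points had an unadjusted limma p under 0.05. Of the 30 member differences, 5 are red, of which Serping1 in C4BP against DMSO (-0.21) and Pros1 in C4BPD against DMSO (0.18) are the largest, and none passed the adjusted threshold; over all genes, 7.93% to 16.2% had an unadjusted p under 0.05 in these comparisons.

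The counts of members past the threshold were set beside the same counts over all genes. In C4BP against DMSO, 0 of 6 members passed, beside 5.96% of 18166 genes, and 1 member, Serping1, had an unadjusted limma p under 0.05, beside 16.2% of genes. In IAPP against DMSO, 0 of 6 passed, beside 3.38% of genes, and Cd55 was the 1 member with an unadjusted p under 0.05, beside 12.3%. In C4BPD against DMSO, 0 of 6 passed, beside 1.93%, and Pros1 was the 1 member with an unadjusted p under 0.05, beside 12.2%. With shares of this size among all genes, these counts of 6 members show nothing particular to them. In C4BP against IAPP, 0 of 6 passed, beside 0.606%, and 0 had an unadjusted p under 0.05, beside 7.93%. In C4BP against C4BPD, 0 of 6 passed, beside 2.37%, and 2 members, Cd55 and Serping1, had an unadjusted p under 0.05, beside 13.7%. The exact permutation test gave a p under 0.05 in 4 of the 30 member comparisons. It was run on the members and Cd59b only, so this count has no share over all genes beside it and is not read further. The interaction, which asks whether the C4BP minus C4BPD difference departs from the IAPP minus DMSO difference, was passed by 0 members and by 0.0495% of genes, and 0 members had an unadjusted p under 0.05, beside 3.79%. The F test across the 4 groups was passed by 0 members and by 7.85% of genes, and 3 members, Cd55, Pros1 and Serping1, had an unadjusted p under 0.05, beside 18.8%. The median log2 difference over the 6 members was 0.04 in C4BP against DMSO, beside 0.00 over all genes. In C4BPD against DMSO it was -0.03, beside -0.01. These comparisons share their control arrays, so they are not independent of one another.

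The other genes of complement and of protein S lay on both sides of the median probe set. Of 54 further genes listed, 47 were measured and 20 lay above the median probe set. Of the 15 measured genes of classical and lectin recognition and proteases, 6 were above it, led by C1qa, a chain of C1q, at the 65.8th percentile. C1qb and C1qc, the other C1q chains, lay below it, at the 37.9th and 44.5th. All 3 alternative pathway genes were above it: Cfp, which encodes properdin, at the 69.9th percentile, and Cfd and Cfb, the proteases of that pathway, at the 52.2nd and 50.3rd. Cfb was above the median of its own array in 8 of 20 arrays, against 17 for Cfd and 20 for Cfp. Of 7 terminal pathway genes only C8g, the gamma chain of C8, was above it, at the 76.2th percentile, and the other 6 lay below. Of 8 receptors only Cr1l, which encodes the rodent regulator Crry that inactivates C3b and C4b on membranes, was above it, at the 89.0th percentile. Among 9 other regulators, Cpn1 was at the 94.4th percentile, Clu at the 92.0th, Susd4 at the 87.9th, Cd59b at the 81.0th and Cd46 at the 52.6th, where Cd46 was above the median of its own array in 16 of 20 arrays. The complement-inhibiting membrane proteins Csmd1 and Csmd3 lay below the median, at the 39.2nd and 26.5th percentiles. Vtn and Cpn2 also lay below it, at the 34.1st and 33.0th. Of 5 partners of protein S, Gas6, the paralogue that signals through the TAM receptors, was at the 98.6th percentile. Its receptors Mertk, Tyro3 and Axl were at the 76.6th, 50.4th and 35.2nd percentiles, and Tyro3 was above the median of its own array in 10 of 20 arrays. In the F test the adjusted p was 0.334 for Cr1l, 0.309 for Susd4, 0.414 for Gas6 and 0.0568 for Colec11, a collectin of the lectin pathway, so none of these passed.

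Of the 47, 1 passed with a higher value and 1 with a lower value in C4BP against DMSO, beside 5.96% of all genes, and 0 passed in the other comparisons or the interaction. Clu encodes clusterin, a secreted chaperone that also restrains the membrane attack complex. Its intensities were 2658, 2555, 2663, 2575 and 2657 in C4BP, against 2435, 2356, 2459.8, 2234 and 2358 in DMSO. Every C4BP array was above every DMSO array. IAPP arrays ran from 2446 to 2543 and C4BPD arrays from 2442 to 2517, between the other groups with overlap of the DMSO range. Clu rose by 0.15 on the log2 scale in C4BP against DMSO, with an interval of 0.08 to 0.21 and an adjusted limma p of 0.00644, and the F test gave 0.0294. The call was lost when each array was centred on its median (adjusted p 0.0562) and when only the groups compared were fitted (0.0776). It was kept in 3 of 5 fits without a replicate number, where the adjusted limma p reached 0.0686. Cpn1 encodes the catalytic chain of carboxypeptidase N, which inactivates the anaphylatoxins. Its intensities were 3227, 2994, 3009, 3026 and 2981 in C4BP, against 3224, 3190.4, 3453, 3324 and 3502 in DMSO. The groups overlapped through the C4BP array numbered 1. Cpn1 fell by 0.13 in C4BP against DMSO, with an interval of -0.21 to -0.06 and an adjusted p of 0.0320, and C4BPD against DMSO gave -0.13 with an adjusted p of 0.0758. The Cpn1 call was lost without any 1 of 7 arrays (C4BP replicates 2 to 5 and DMSO replicates 3 to 5), with adjusted p up to 0.0997. It was kept in 4 of 10 other settings. Of 5 fits without a replicate number, 1 kept it, and the adjusted limma p reached 0.214. With adjustment over all probe sets, the limma p of this Cpn1 probe set was 0.0707. A second Cpn1 probe set gave -0.11, with an adjusted limma p of 0.733 over all probe sets. Grouping by the treatment field, which mixes arrays of different titles, gave -0.08 for Clu and 0.06 for Cpn1, both of the opposite sign.

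Among receptors and transcription factors known to act upstream of complement genes, 13 of 16 listed were measured and 12 lay above the median probe set. Il1r1, the signalling receptor for interleukin-1, gave 869, 770.4, 812, 720.2 and 732 in C4BP and 804, 753, 832, 746 and 787 in IAPP. It gave 886, 856, 865, 858 and 856 in C4BPD and 979.9, 959, 971, 948 and 918 in DMSO. All arrays of C4BP, IAPP and C4BPD were below every DMSO array. Il1r1 fell by 0.29 on the log2 scale in C4BP against DMSO (adjusted limma p 0.000288) and by 0.28 in IAPP against DMSO (0.000823). In C4BPD against DMSO it gave -0.14 with an adjusted p of 0.138, and its interaction was 0.13, with an interval of -0.0012 to 0.27. Grouping by the treatment field, which mixes arrays of different titles, gave Il1r1 differences of the opposite sign. They were 0.03 for C4BP against DMSO and 0.02 for IAPP against DMSO.
Ifngr1, the ligand-binding chain of the interferon-gamma receptor, rose by 0.18 in IAPP against DMSO, with means of 2058 ± 115 in IAPP and 1814 ± 94.5 in DMSO (SD, n = 5 each) and an adjusted p of 0.0264. That call was lost without any 1 of 6 arrays (IAPP replicates 1, 3 and 4 and DMSO replicates 2, 3 and 5), with adjusted p up to 0.0833, and it was kept in 6 of 10 other settings and in 1 of 5 fits without a replicate number. The lowest Ifngr1 difference among the 10 settings was 0.03 (adjusted p 0.999), with the treatment field. Tnfrsf1a, a receptor for tumour necrosis factor, changed across the 4 groups in the F test (adjusted p 0.0129), with means of 2689 ± 47.5 in C4BP, 2772 ± 82.3 in IAPP, 2466 ± 107 in C4BPD and 2542 ± 79.8 in DMSO. None of its pairwise comparisons passed, the lowest adjusted p being 0.0691 for IAPP against DMSO. Of the 13 measured upstream genes, 3 passed the F test, beside 7.85% of all genes.

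**Figure D4:**
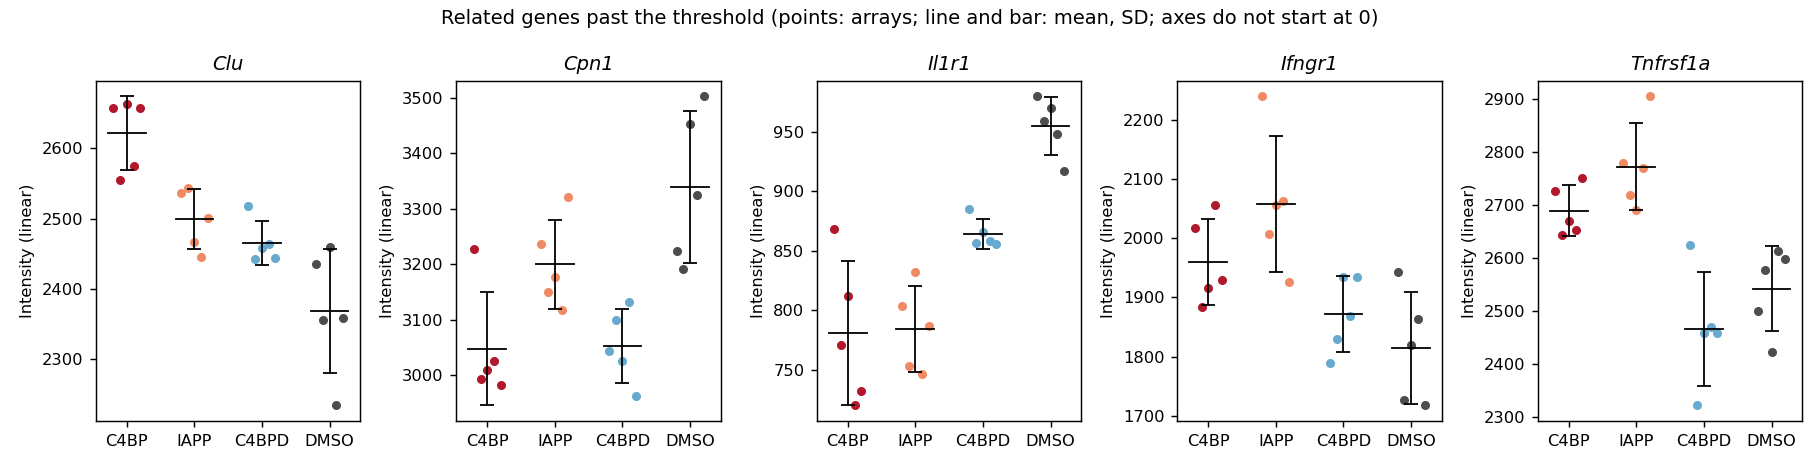
Linear intensity on the vertical axis is shown for the 5 related genes that passed a test, with groups along the horizontal axis, points for arrays and a line and bar for the mean and SD of 5 arrays; the vertical axes do not start at 0. Il1r1 in C4BP (720.2 to 869) and in IAPP (746 to 832) lies below DMSO (918 to 979.9), and Clu in C4BP (2555 to 2663) lies above DMSO (2234 to 2459.8).

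Marker genes of several cell types were placed among the probe sets. All 8 measured beta cell markers lay above the median probe set, as did 2 of 4 markers of other islet cells (Gcg, which encodes glucagon, and Sst, which encodes somatostatin). Gcg averaged 13.28 on the log2 scale, below Chga (13.52), Iapp (13.49) and Slc2a2 (13.34). It was above Slc30a8 (12.58), Ins1 (12.53), Ins2 (12.13), Mafa (10.09) and Nkx6-1 (8.80). This is an order of probe set signals, and amounts of RNA were not compared between genes. Sst, Ghrl and Ppy averaged 7.76, 6.86 and 6.80, so most of the summed signal of the 4 came from Gcg. The summed markers of other islet cells ranged from 10230.3 to 10818 in C4BP, 9582 to 10041 in IAPP, 10351 to 10760.2 in C4BPD and 10383 to 11078 in DMSO, so the IAPP arrays lay below all others. Of the 4, 1 (Gcg) passed in IAPP against DMSO, beside 3.38% of all genes, with a log2 difference of -0.13 (adjusted limma p 0.0195). The lower sum and the Gcg difference are not separate results. Of the markers of cells that make much of the body's complement, 0 of 4 hepatocyte markers and 0 of 6 macrophage markers were above the median probe set, and none passed a test. The summed hepatocyte markers ranged from 587 to 682 in C4BP, 578 to 619 in IAPP, 596 to 634 in C4BPD and 551 to 617 in DMSO. The summed macrophage markers ranged from 507 to 601 in C4BP, 515 to 579.7 in IAPP, 525 to 579 in C4BPD and 528 to 551 in DMSO. Of 5 fibroblast markers 2 were above the median (Col1a1 and Col3a1), of 2 endothelial markers 0, and of 4 acinar markers 1 (Cela1), and none of these passed a test. Summed beta cell markers ranged from 48494 to 52549 in C4BP, 49098 to 52032 in IAPP, 51875 to 55725 in C4BPD and 51902 to 55680.0 in DMSO. Of the 8, 3 (Mafa, Slc2a2 and Slc30a8) passed with lower values in C4BP against DMSO, beside 5.96% of all genes. In IAPP against DMSO 2 (Mafa and Slc2a2) passed with lower values, beside 3.38% of all genes. Slc2a2, the glucose transporter GLUT2, fell by 0.14 on the log2 scale in C4BP against DMSO (adjusted limma p 0.00483). Ins1, Ins2, Iapp, Chga and Nkx6-1 passed in neither comparison. The part of these islet markers in the differences of the members, Clu, Cpn1, Il1r1 and Ifngr1 was not tested. In RNA from whole wells, fewer cells of a type and less RNA per cell cannot be told apart.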

How the data were processed

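RNA of INS-1 cells was hybridised to 20 Rat Gene 2.0 arrays, 5 per title group. The deposited values are intensities per probe set, as the authors normalized and summarized them, on a linear scale. The submitters' processing notes name Affymetrix Expression Console, whose algorithm is not given in the sources used here. Values ran from 4.73 to 18574, array medians from 171 to 183, and correlations between arrays from 0.985 to 0.996. By these whole-array measures no array stood apart, but they do not exclude smaller shifts. Of the far values flagged below, 7 were on arrays numbered 1, 1 on number 2 and 0 on the rest. The number of arrays limits the precision, and no detection calls were used.

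Of 36685 probe sets, 190 controls were left out. The platform annotation gave 18511 probe sets 1 symbol, 575 several and 17599 none. The brightest probe set represented each of 291 genes with several, which left 18166 genes. Log2 intensities were fitted with limma 3.58.1 (lmFit and eBayes, R 4.3.3) over all 20 arrays with 4 group means and 16 residual degrees of freedom. Two-sided p-values had Benjamini-Hochberg adjustment across the 18166 genes and a threshold of 0.05. Exact permutation tests used the 252 splits of the arrays of each comparison. No block for replicate number was used, since the labels do not say that a number marks a clone. The titles number the arrays 1 to 20, with 1 array of each group under each replicate number, so a pairing by number is possible. Fits with such a block are given in the last section.

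The members and the gene lists were chosen with earlier results of these data known. Every member is named. Of other listed genes, those past the threshold and up to 4 more per list above the median with the smallest F-test p were eligible to be named. C1qb, C1qc, Axl, Csmd1, Csmd3, Vtn and Cpn2, which lay below the median, were named outside this rule for their positions only. Promoter windows came from RefSeq (GRCr8), and 7 of the 9 members had one. Alternatives changed the block, centring, normalization, dim filter, offset, probe set rule, array weights, groups fitted, grouping field and arrays left out. The fit was tested on simulated data.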

Additional observations from a re-analysis of the deposited data

Results flagged for a closer look

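In each group of 5 arrays, the gap between the highest or lowest array and its nearest neighbour was divided by the range of the group, and a ratio above 0.71 (Dixon's 95% critical value) marked an array as far from the others. This marked 8 of 140 sets of 5 values, taken from 35 genes, and chance marks about 1 in 20. Of the 8, 7 were arrays numbered 1, in different groups, and 2 concerned the members.

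Cd55 in IAPP replicate 1 was 2634, against 2765 to 2803 in the other IAPP arrays, a ratio of 0.782. Pros1 in DMSO replicate 1 was 447, against 503 to 517 in the other DMSO arrays, a ratio of 0.815. Cd59b in IAPP replicate 1 was 932, against 1152 to 1188, a ratio of 0.873. Cpn1 in C4BP replicate 1 was 3227, against 2981 to 3026, a ratio of 0.814. Cd46, a membrane cofactor for cleavage of C3b, was 129 in DMSO replicate 1, against 177.1 to 201, a ratio of 0.715. Gas6 was 7098 in C4BPD replicate 1, against 5897 to 6146, a ratio of 0.777. Ins1, an insulin gene, was 7092 in DMSO replicate 1, against 5577 to 5878, a ratio of 0.782. Fcnb, a ficolin of the lectin pathway, was 258 in IAPP replicate 2, against 213 to 223, a ratio of 0.748. The Pros1 array is in the comparison of C4BPD with DMSO, where leaving it out gave a Pros1 log2 difference of 0.14 with an adjusted limma p of 0.279.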

How the results depend on the processing

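Under the alternatives, 238 counts of members past the threshold equalled the reported count of 0 and 5 did not. In C4BP against DMSO, 1 member (Serping1) passed with the replicate block (adjusted p 0.0347), after quantile normalization (0.0397) and with dim genes left out (0.0433). Leaving out arrays gave 0 to 1 members there, the 1 being Serping1 without C4BP replicate 1 (-0.25, adjusted p 0.0473). In the F test 1 member passed with the replicate block. The titles number the arrays 1 to 20, with 1 array of each group in turn under each replicate number. Same-numbered arrays deviated together, at a correlation over 0.1, in 2 to 4 of 5 pairs per comparison, with medians of 0.0945 to 0.318. Arrays of different numbers were not compared in this way, so whether the numbers pair the arrays was not settled.

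Of the 47 other complement and protein S genes, the reported counts were 2 in C4BP against DMSO, 1 in the F test and 0 elsewhere. With the replicate block they were 4 in C4BP against DMSO, 1 in C4BPD against DMSO, 2 in C4BP against C4BPD and 5 in the F test. In C4BP against DMSO the count was 1 with all probe sets tested, with the mean of a gene's probe sets or with array weights, and 0 with arrays centred, with only the groups compared or with the treatment field. In the F test it was 3 after quantile normalization, with dim genes left out, with an offset of 16 or with array weights, and 0 with arrays centred, all probe sets or the treatment field. With dim genes left out, 1 passed in C4BPD against DMSO and 1 in C4BP against C4BPD. Leaving out arrays gave 0 to 2 in C4BP against DMSO, 0 to 1 in C4BP against C4BPD and 0 to 2 in the F test. The treatment field matched the titles in 3 of 20 arrays, so grouping by it puts arrays of different titles together. Under it the differences of Clu, Cpn1 and Il1r1 that had passed were smaller in size and of the opposite sign. They were -0.0763 for Clu (against 0.15) and 0.0610 for Cpn1 (against -0.13). For Il1r1 they were 0.0266 in C4BP and 0.0226 in IAPP (against -0.29 and -0.28). The Ifngr1 difference in IAPP against DMSO was 0.03 (against 0.18) and kept its sign. The causes were not tested. The exact permutation test and the fit of the shared C4a and C4b probe set were added after the data were seen.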
